A study of Arabidopsis thaliana with 12 samples.

Results

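Whole 5-d-old Arabidopsis thaliana seedlings of dcp5-1, a mutant of the mRNA decapping gene DCP5, were set against seedlings of its Col-0 background before any salt had acted. The comparison holds 6 of the 12 RNA-seq libraries of the series, 3 of dcp5-1 and 3 of Col-0 at 0 min in 150 mM NaCl; the other 6, at 60 min, are used here only to ask whether a difference was still there. Seed of both genotypes had 3 days at 4 °C, seedlings grew for 5 days at 22 °C on 1x MS agar under 16 h light and 8 h dark, and all of them spent 30 min in liquid 1x MS medium before sampling, so that both genotypes had been moved from agar into liquid. The labels name a single mutant line, with no complemented line and no second allele, and do not state if the replicates were grown apart. P-values therefore measure only how far these libraries scatter, and that scatter may be technical. The 19876 loci whose FPKM averaged 1 or more across all 12 columns were tested. FPKM are fragment counts scaled by transcript length and library size, and a fold change is a difference of log2(FPKM + 1), dcp5-1 minus Col-0, which understates the change of low genes.

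Messenger RNA in the cytoplasm is broken down mostly after its poly(A) tail has been shortened and its 5′ cap removed. The cap is cleaved by DCP2 with DCP1 and the scaffold VARICOSE, helped by the LSM1-7 ring, PAT1 and DEAD-box helicases, and the body is then degraded by the exonuclease XRN4. DCP5 is an LSM14-type protein that binds this machinery and is needed for processing bodies to form and for mRNAs to be held out of translation. In seedlings the same machinery removes transcripts carried over from earlier stages.

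DCP5 itself (AT1G26110, chromosome 1 from 9024341 to 9027955 in TAIR10.1) had 13.0, 13.0 and 13.2 FPKM in the 3 dcp5-1 libraries, against 48.5, 51.7 and 52.1 FPKM in the 3 Col-0 libraries. The libraries thus fell into the groups their labels name, and the mutant kept a reduced amount of the transcript. The log2 fold change was -1.88 (SE 0.047, limma with Benjamini-Hochberg adjusted p = 6.38e-10). At an adjusted p under 0.05, 3731 loci (18.8%) were higher and 5582 (28.1%) were lower in dcp5-1, and the median over all loci was -0.05. Those shares are the background for every count of higher and lower list members below. Differences were mostly small, since 192 loci (0.966%) were higher and 370 (1.86%) lower by at least 1 log2 unit. The 3 dcp5-1 and the 3 Col-0 libraries did not overlap at 10348 loci (52.1%). The excess of lower over higher calls depends on the scaling: after each library was divided by its median there were 4734 higher and 4547 lower loci, and after quantile normalization 4796 and 4496.

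The libraries correlated at r = 0.991 between dcp5-1 replicates, at 0.990 to 0.992 between Col-0 replicates and at 0.971 to 0.975 between genotypes, across genes. Col-0 at 0 min was the more variable group, with a median SD over loci of 0.12 log2 units, against 0.08 in dcp5-1. Read numbers recovered from the FPKM steps put a median of 172 to 176 reads on a gene in dcp5-1 and of 151 to 170 in Col-0, over 14027 genes with 1 transcript. Very short features, such as tRNA and snoRNA genes, reached very high FPKM from few reads, and of 26 snoRNA loci 1 was higher and 2 were lower.

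**Figure D1:**
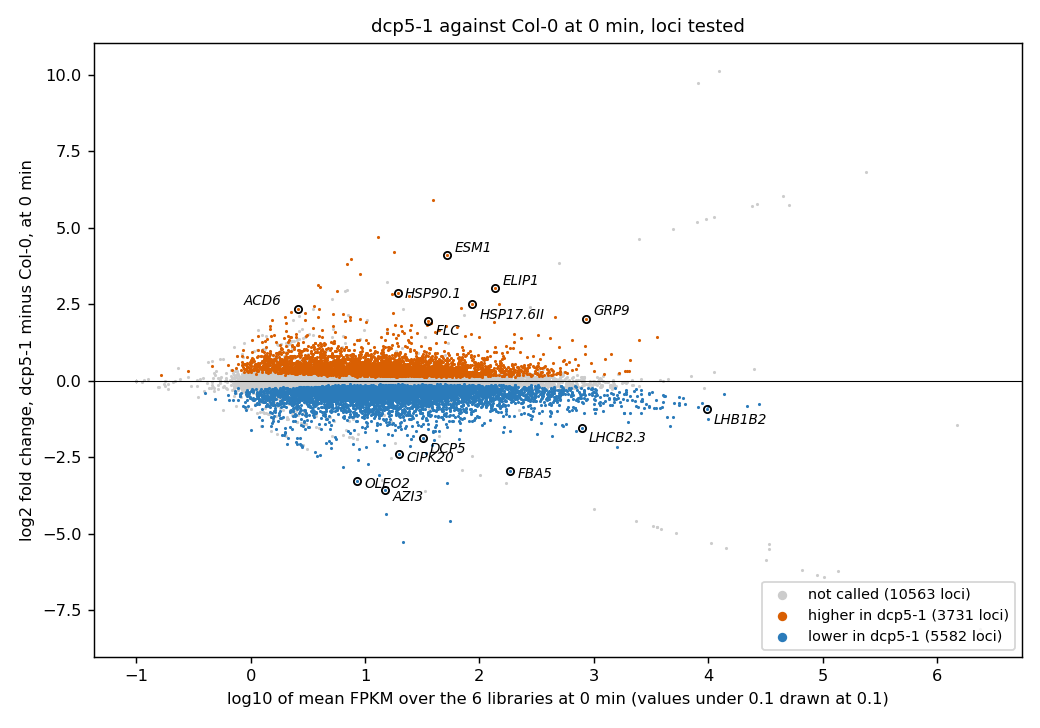
Each point is a locus tested at 0 min, with log10 of its mean FPKM over the 6 libraries on the x axis and its log2 fold change, dcp5-1 minus Col-0, on the y axis; colours mark the 3731 higher, 5582 lower and remaining loci. Circled genes are named, from ESM1 at 4.09 to AZI3 at -3.58, and the most abundant labelled gene, LHB1B2, lies at -0.94.

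Many heat shock proteins and other chaperones were higher in dcp5-1. These proteins hold or refold damaged proteins, and small heat shock proteins are nearly silent in unstressed leaves. Of 12 cytosolic small heat shock proteins tested, 9 were higher and none lower, and all 4 of the chloroplast, mitochondrial and endoplasmic reticulum (ER) members tested were higher. The list medians were 0.70 and 1.19 log2 units, against -0.05 over all loci. HSP17.6A had 44.8, 42.6 and 40.5 FPKM in dcp5-1, against 4.91, 5.06 and 6.23 FPKM in Col-0 (log2 fold change 2.77, SE 0.122, adjusted p = 3.12e-08). Its neighbour on chromosome 5, HSP17.6II, had 150, 140 and 153 FPKM in dcp5-1, against 23.54, 28.3 and 24.4 FPKM in Col-0. For both genes the lowest mutant library was several times the highest Col-0 library. HSP17.6C was the most abundant of the class, with 239, 220 and 226 FPKM in dcp5-1 and 161, 164 and 150 FPKM in Col-0, and its difference was smaller (0.53, adjusted p = 4.82e-05). Not every member moved: HSP18.2, a widely used heat reporter gene, had 4.84 FPKM in dcp5-1 and 6.204 in Col-0, and did not pass. Several small heat shock genes have near-identical copies, so that reads may be split between them.

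Among organelle members, ATHSP22.0 of the ER had 2.296, 2.70 and 3.36 FPKM in dcp5-1, against 0.379, 0 and 0.162 FPKM in Col-0, and mitochondrial HSP23.6-MITO averaged 3.51 ± 0.557 against 0.808 ± 0.211 FPKM (mean ± SD, n = 3 libraries, as for all means here). The chloroplast member HSP21 averaged 5.72 ± 0.742 FPKM in dcp5-1 and 2.23 ± 0.475 in Col-0. All 3 were low in both genotypes next to the cytosolic class.

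Of 22 large chaperones and cochaperones 14 were higher and 2 lower (median 0.42). HSP90.1, the heat-inducible cytosolic HSP90, had 36.1, 31.8 and 36.1 FPKM in dcp5-1, against 3.33, 4.17 and 4.09 FPKM in Col-0 (2.88, SE 0.075, adjusted p = 6.87e-10). The inducible HSP70 (AT3G12580) had 38.3, 39.4 and 35.5 FPKM in dcp5-1, against 8.92, 13.9 and 12.0 FPKM in Col-0. HSC70-3 stood at 39.4, 41.6 and 39.0 FPKM in dcp5-1, against 8.70, 13.3 and 10.5 FPKM in Col-0. The immunophilin ROF2, a partner of HSP90, averaged 14.5 ± 1.47 FPKM in dcp5-1 and 7.62 ± 0.563 in Col-0. The constitutive HSC70-1 went the other way, with 309, 331 and 321 FPKM in dcp5-1 and 340, 513 and 395 FPKM in Col-0. That call (-0.35, adjusted p = 0.0226) was lost under 5 of 15 alternative settings.

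The transcription factors that act on these genes did not move as a class. Of 14 heat shock factors and MBF1C, 3 were higher and 4 lower, near the 18.8% and 28.1% of all loci. HSFA2, the heat-inducible activator, had 3.57, 4.47 and 4.24 FPKM in dcp5-1, against 1.08, 0.700 and 0.892 FPKM in Col-0 (1.43, adjusted p = 3.48e-06), and HSFB1 (listed as HSF4) averaged 92.3 ± 1.00 against 64.1 ± 1.35 FPKM. HSFB2A was lower, at 11.4 ± 0.178 FPKM in dcp5-1 and 16.8 ± 3.57 in Col-0. In the ER, 9 of 12 folding genes were higher and 2 lower (median 0.36). The luminal chaperone BIP2 averaged 19.4 ± 1.63 FPKM in dcp5-1 and 12.3 ± 1.49 in Col-0, and the cochaperone gene ATERDJ3B averaged 47.3 ± 1.83 against 28.7 ± 2.01 FPKM. Its partner SDF2 averaged 55.5 ± 1.40 FPKM in dcp5-1 and 33.6 ± 2.76 in Col-0.

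The 250 bases before the gene start of 2 of these genes are shown because they hold heat shock elements, the sites that heat shock factors bind. TTCNNGAA is a palindrome and reads alike on both strands, and its matches are in capitals; the sequences are from the RefSeq TAIR10.1 genome, 5′ to 3′ on the gene's strand.
HSP17.6A (chr5:3884839-3885088, minus strand): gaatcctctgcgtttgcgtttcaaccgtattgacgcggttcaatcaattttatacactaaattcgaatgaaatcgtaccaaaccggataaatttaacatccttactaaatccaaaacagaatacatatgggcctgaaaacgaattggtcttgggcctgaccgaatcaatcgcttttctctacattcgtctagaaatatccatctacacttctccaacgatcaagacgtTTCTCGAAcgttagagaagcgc
HSP17.4 (chr3:16984868-16985117, minus strand): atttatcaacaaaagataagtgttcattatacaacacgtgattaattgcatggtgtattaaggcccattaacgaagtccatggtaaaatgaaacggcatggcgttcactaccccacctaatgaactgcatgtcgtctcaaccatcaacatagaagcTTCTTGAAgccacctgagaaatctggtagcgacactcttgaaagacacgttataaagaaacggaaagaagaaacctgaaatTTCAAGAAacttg
TTCNNGAA stood in 33.3% of 12 cytosolic small heat shock promoters, in 4 of 22 large chaperone promoters, in 10.8% of 158 promoters of loci higher and 6.94% of 317 of loci lower by at least 1 log2 unit, and in 7.67% of all 18718 promoters of tested nuclear protein-coding loci. Its share was nearly as high in lists that were mostly lower, with 29.4% of 17 ERF and DREB promoters, 28.6% of 14 osmolyte promoters and 27.8% of 18 Calvin cycle promoters. The other phase of the element, GAANNTTC, which can overlap it, stood in 16.7%, 4.55%, 7.59%, 9.46% and 9.23% of the first 5 sets named. The 2 matches in the HSP17.4 promoter each overlap a GAANNTTC.

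ELIP1 and ELIP2 were higher in dcp5-1, while nearly all genes of the photosynthetic apparatus were lower. The ELIP genes encode early light-inducible proteins, antenna relatives that bind free chlorophyll under excess light and in greening. ELIP1 had 236, 260 and 241 FPKM in dcp5-1, against 27.1, 35.0 and 26.9 FPKM in Col-0. ELIP2 had 599, 609 and 605 FPKM in dcp5-1, against 203, 275 and 217 FPKM in Col-0 (1.39, adjusted p = 5.94e-07). Across the list of 8 ELIP and one-helix proteins 4 were higher and 2 lower, and the one-helix gene OHP was among the lower, with 1033 ± 30.8 FPKM in dcp5-1 and 1431 ± 160 in Col-0.

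Of 19 light-harvesting antenna genes 18 were lower in dcp5-1 and none higher, with a median of -0.85. Their summed level was 39224 to 40955 FPKM in the dcp5-1 libraries, against 65550 to 83921 FPKM in the Col-0 libraries. In a bulk sample fewer cells of a type and less RNA per cell cannot be told apart. LHCB2.3, of the photosystem II antenna, had 402, 424 and 371 FPKM in dcp5-1, against 1033, 1311 and 1160 FPKM in Col-0 (-1.54, SE 0.084, adjusted p = 1.53e-07). CAB3 had 1084, 1171 and 1067 FPKM in dcp5-1, against 2450, 3369 and 2684 FPKM in Col-0; the Lhcb1 genes to which it belongs are close copies. LHB1B2, the most abundant antenna transcript, had 6620, 6700 and 6453 FPKM in dcp5-1, against 11032, 15097 and 12118 FPKM in Col-0. No mutant library reached the lowest Col-0 library in any of the 3, and Col-0 replicate 2 was highest throughout. Across all loci, 52.1% showed no overlap between the genotypes at 0 min, in either direction.

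All 21 nuclear genes for photosystem subunits were lower (median -0.73). PSBR of photosystem II, with the highest level of the list, averaged 15530 ± 301 FPKM in dcp5-1 and 27792 ± 3357 in Col-0. PSAN of photosystem I averaged 2629 ± 108 against 6050 ± 880 FPKM, the steepest fall of the list at -1.19 (adjusted p = 3.40e-06). PSAG of photosystem I averaged 665 ± 37.3 FPKM in dcp5-1 and 1377 ± 95.5 in Col-0. Of 18 genes for Calvin cycle enzymes 14 were lower and none higher (median -0.57), among them the aldolase gene FBA2 with 798 ± 28.3 FPKM in dcp5-1 and 1598 ± 274 in Col-0 and the dehydrogenase gene GAPB with 469 ± 11.5 against 925 ± 137 FPKM. RBCS3B, a small subunit gene of Rubisco, averaged 11687 ± 362 FPKM in dcp5-1 and 15862 ± 1914 in Col-0 (-0.43, adjusted p = 0.00805); after quantile normalization its sign turned and it was not called. Of 14 chlorophyll synthesis genes 9 were lower and none higher (median -0.25), with GUN5, a subunit of magnesium chelatase, at 91.9 ± 0.672 FPKM in dcp5-1 and 137 ± 11.7 in Col-0 and PORB, which reduces protochlorophyllide in light, at 11.6 ± 0.482 against 20.2 ± 1.91 FPKM. Of 66 chloroplast-encoded loci 1 (1.52%) was higher and 22 (33.3%) were lower, beside 18.8% and 28.1% of all loci, in libraries that the labels call mRNA-seq. Their median was -0.36, against -0.05 over all loci.

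The photosynthesis genes sit at the top of the abundance range, where quantile normalization changes values most. With it 14 antenna, 12 photosystem and 11 Calvin cycle genes were still called lower, while 2 Calvin cycle genes were called higher, and the list medians became -0.31, -0.28 and -0.35. LHB1B2 and PSBR lost their calls under it (adjusted p = 0.659 and 0.372).

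**Figure D2:**
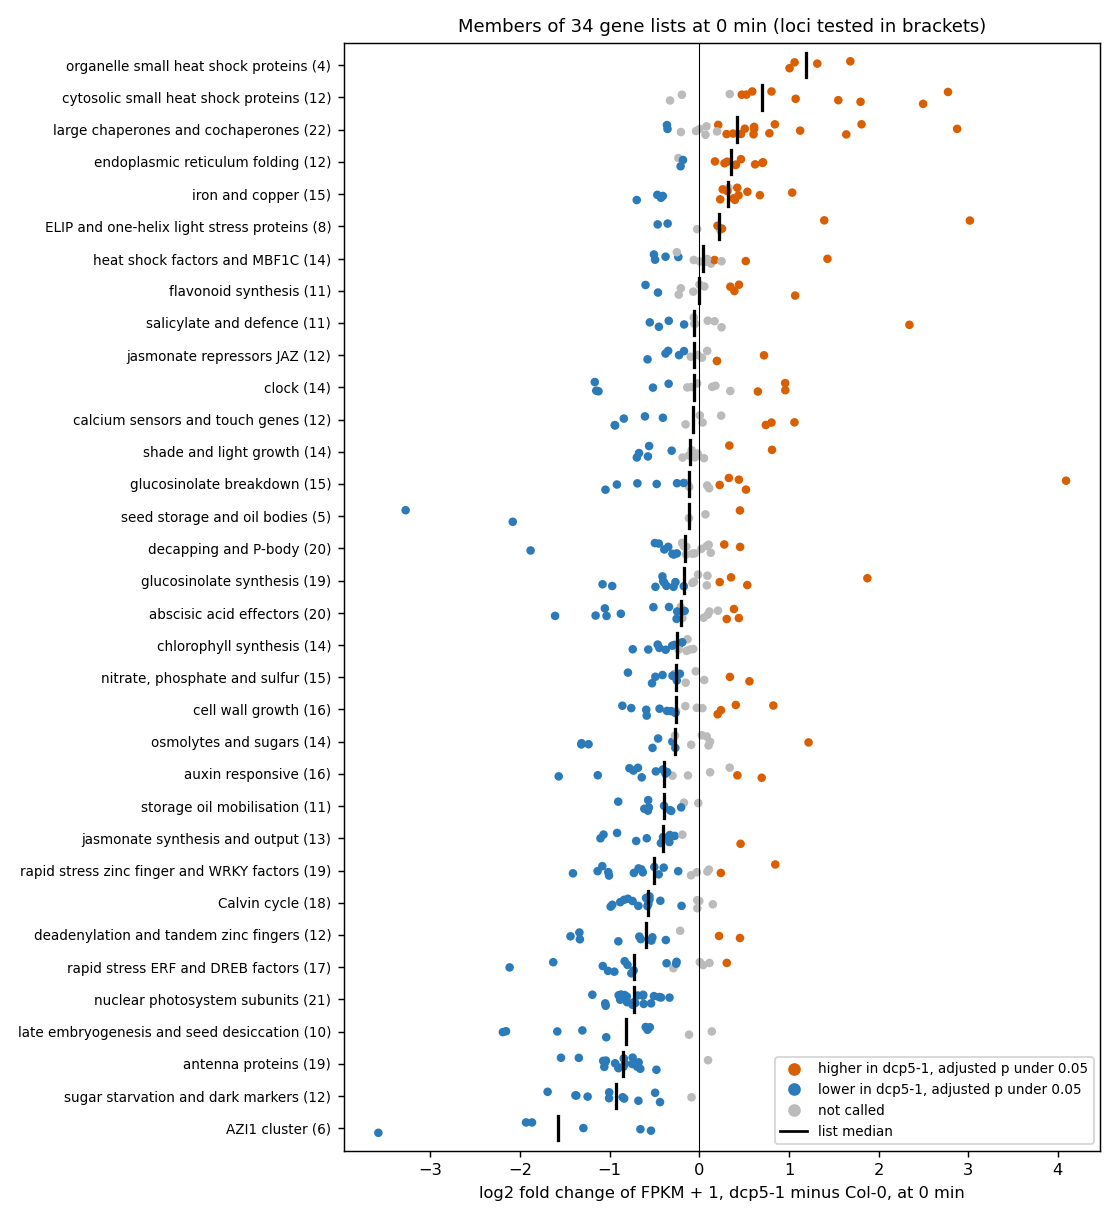
Each row is 1 of 34 gene lists with its number of tested loci, each point a member's log2 fold change, dcp5-1 minus Col-0, at 0 min, and each bar the list median. Medians run from 1.19 for organelle small heat shock proteins to -1.58 for the AZI1 cluster, and all 21 photosystem points lie left of 0.

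Genes that mark sugar shortage were lower as a block in dcp5-1. These genes are switched on in darkness and carbon starvation, in part through the kinase SnRK1, and take part in recycling nitrogen and branched amino acids. Of 12 tested 11 were lower and none higher, with a median of -0.93. ASN1, the dark-induced asparagine synthetase, had 74.4, 77.9 and 74.2 FPKM in dcp5-1, against 247, 258 and 234 FPKM in Col-0 (-1.69, SE 0.046, adjusted p = 8.98e-10). DIN10, a raffinose synthase-like gene, had 60.5, 63.2 and 57.2 FPKM in dcp5-1, against 161, 157 and 158 FPKM in Col-0. SEN1 (AT4G35770), a senescence marker, averaged 470 ± 19.5 FPKM in dcp5-1 and 851 ± 44.3 in Col-0, and TPS11, a trehalose phosphate synthase-like gene, averaged 14.1 ± 0.972 against 34.7 ± 1.21 FPKM. BCAT-2, which acts on branched amino acids, averaged 6.66 ± 0.587 FPKM in dcp5-1 and 18.8 ± 1.65 in Col-0. MCCA of the leucine breakdown pathway, outside this list but among the 15 largest falls, averaged 7.16 ± 0.654 against 27.0 ± 3.55 FPKM. The summed level of the list was 1286 to 1407 FPKM in the dcp5-1 libraries and 2293 to 2475 FPKM in the Col-0 libraries, with no overlap.

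The promoters of ASN1 and SEN1 are shown because they hold GATAAG, the I-box core, the motif most frequent in this list among those searched relative to all promoters. GATAAG or its reverse complement CTTATC is in capitals.
ASN1 (chr3:17441432-17441681, minus strand): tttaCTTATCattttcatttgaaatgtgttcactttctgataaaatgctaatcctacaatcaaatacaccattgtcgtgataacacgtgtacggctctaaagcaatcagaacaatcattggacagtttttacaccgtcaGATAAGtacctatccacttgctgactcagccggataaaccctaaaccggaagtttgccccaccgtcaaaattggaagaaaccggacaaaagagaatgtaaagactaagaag
SEN1 (chr4:16944628-16944877, plus strand): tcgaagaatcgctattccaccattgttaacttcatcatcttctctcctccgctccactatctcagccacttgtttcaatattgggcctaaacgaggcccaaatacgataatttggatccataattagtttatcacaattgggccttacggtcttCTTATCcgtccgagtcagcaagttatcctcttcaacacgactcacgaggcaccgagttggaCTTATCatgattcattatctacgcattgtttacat
It stood on either strand in 50% of the 12 sugar starvation promoters, in the same share of the 12 JAZ repressor promoters, a list of mixed direction, in 31.6% of 19 zinc finger and WRKY promoters, in 20.2% of 317 promoters of loci lower by at least 1 log2 unit, in 19.0% of the 158 of loci higher by that much, and in 12.5% of all tested promoters.

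Fast stress regulators that respond to touch, wounding and cold within minutes were lower in dcp5-1 in unsalted medium. Of 17 ERF and DREB factors 12 were lower and 1 higher (median -0.73), and of 19 zinc finger and WRKY factors 13 were lower and 2 higher (median -0.50). ERF6, an ethylene response factor of oxidative and growth stress, had 13.8, 13.98 and 13.4 FPKM in dcp5-1, against 54.2, 79.1 and 57.8 FPKM in Col-0. CBF2, a regulator of cold acclimation, had 11.4, 14.4 and 13.1 FPKM in dcp5-1, against 37.2, 50.0 and 39.8 FPKM in Col-0. DREB2A, a factor of drought and heat, averaged 3.03 ± 0.321 FPKM in dcp5-1 and 7.15 ± 0.505 in Col-0. WRKY33, of the response to fungi, had 16.5, 16.7 and 18.7 FPKM in dcp5-1, against 49.6, 43.4 and 49.9 FPKM in Col-0 (-1.41, adjusted p = 3.31e-08). The zinc finger gene ZAT11 averaged 2.29 ± 0.146 against 6.26 ± 0.907 FPKM. WRKY60 was an exception, with 22.5 ± 1.40 FPKM in dcp5-1 and 12.0 ± 0.634 in Col-0 (0.85, adjusted p = 1.98e-06). WRKY18 did not pass, at 156 FPKM in dcp5-1 and 159 FPKM in Col-0.

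Of 12 calcium sensors and touch genes 5 were lower and 3 higher, beside 28.1% and 18.8% of all loci. TCH3, a calmodulin-like gene, had 391, 409 and 390 FPKM in dcp5-1, against 712, 878 and 709 FPKM in Col-0, and TCH4, a touch-induced wall enzyme, averaged 442 ± 6.05 against 852 ± 41.7 FPKM. CML41, a calmodulin-like protein of plasmodesmata, was higher, with 7.01, 6.92 and 6.43 FPKM in dcp5-1 and 2.03, 3.08 and 3.19 FPKM in Col-0. All seedlings had been moved to liquid 30 min before, so handling was shared by both genotypes, and its part in these differences was not tested.

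The AZI1 cluster, a tandem row of small lipid-transfer genes on chromosome 4 linked to systemic immunity, was lower: all 6 members were called lower, with the lowest median of any list (-1.58), though only 5 of 6 were called under 10 of the 15 alternative settings. AZI3 had 1.69, 1.02 and 1.75 FPKM in dcp5-1, against 25.3, 29.9 and 30.3 FPKM in Col-0 (-3.58, SE 0.12, adjusted p = 4.08e-09). EARLI1 had 15.35, 16.2 and 16.1 FPKM in dcp5-1, against 54.9, 67.9 and 68.3 FPKM in Col-0. AZI1 had 19.0, 18.9 and 19.6 FPKM in dcp5-1, against 40.8, 53.7 and 51.6 FPKM in Col-0. AZI4 averaged 0.543 ± 0.280 against 4.58 ± 0.516 FPKM. Together with AT4G12495, AZI1, EARLI1, AZI3 and AZI4 form the longest run of adjacent tested loci lower by at least 1 log2 unit, 5 in all. AT4G12495 lies within AZI3 on the opposite strand. Without strand their reads cannot be told apart, so AT4G12495 may not be a separate member. No difference was called at 60 min for EARLI1, with 112 ± 3.83 FPKM in dcp5-1 and 111 ± 7.88 in Col-0, and for AZI3, with 30.0 ± 2.61 against 31.7 ± 2.80 FPKM. AZI1 was called higher in dcp5-1 at 60 min, with 117 ± 11.2 FPKM against 79.7 ± 2.96 in Col-0 (log2 fold change 0.54). AZI4 was still called lower, with 2.73 ± 0.280 against 5.93 ± 0.439 FPKM.

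**Figure D3:**
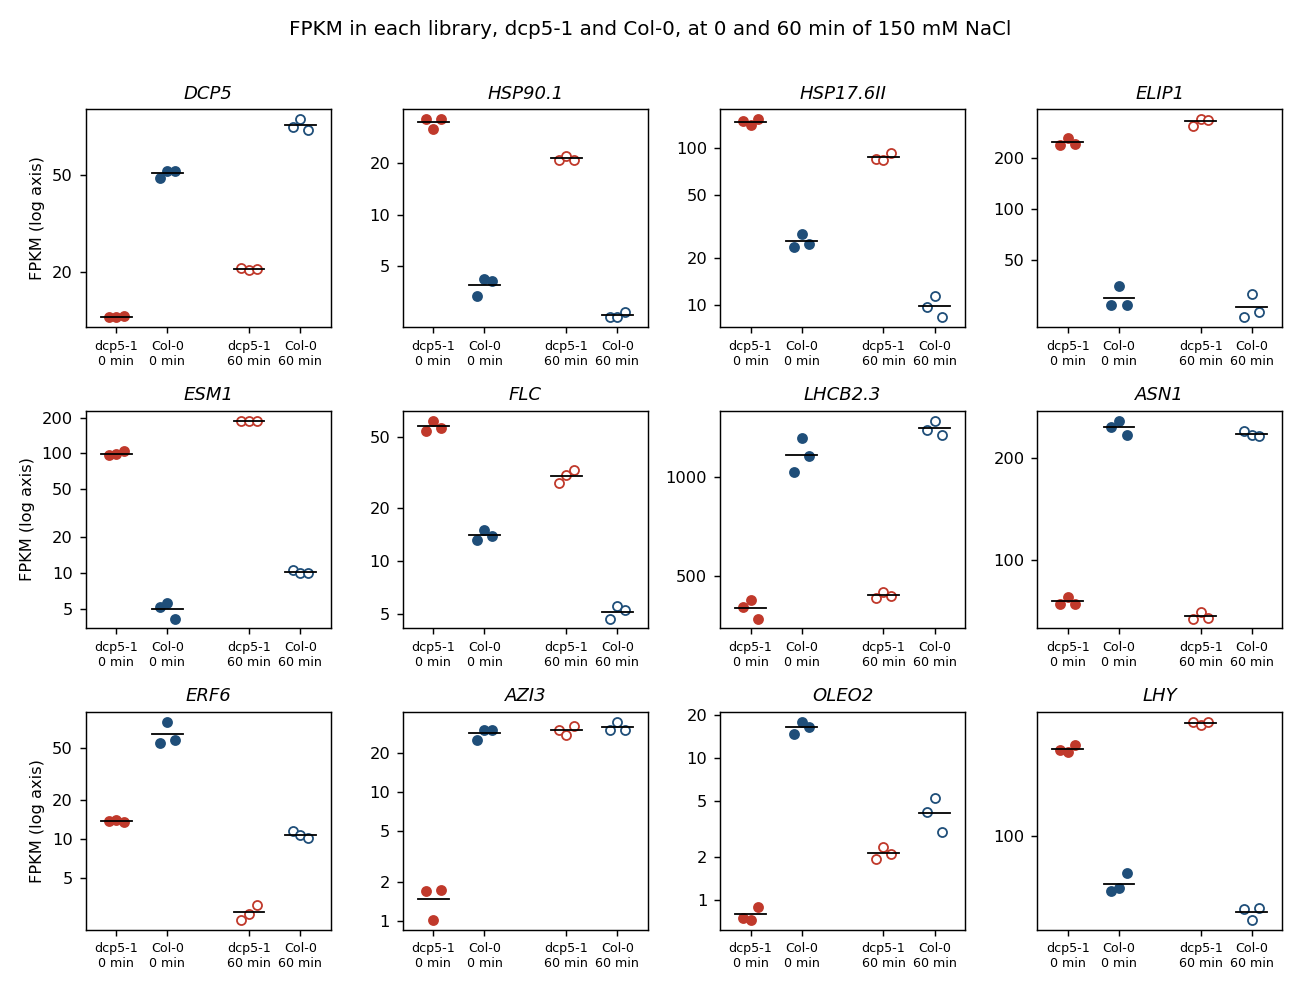
FPKM on log axes of 12 genes in each library, dcp5-1 in red left of Col-0 in blue, filled at 0 min and open at 60 min, with bars at the group means. At 0 min the mutant libraries lie apart from the Col-0 libraries in all 12 panels, as at 52.1% of all loci tested. Some of the 12 genes were named by a rule that required this. AZI3 lies at 1.02 to 1.75 against 25.3 to 30.3 FPKM at 0 min, and overlaps at 60 min.

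Jasmonate synthesis was lower in dcp5-1 while its repressors were mixed. Jasmonate is the wound and herbivore hormone. Of 13 synthesis and output genes 11 were lower and 1 higher (median -0.40). LOX2, the chloroplast lipoxygenase, had 5.83, 5.68 and 5.73 FPKM in dcp5-1, against 13.5, 13.0 and 12.9 FPKM in Col-0 (-1.07, SE 0.042, adjusted p = 1.53e-08). AOS, the next enzyme, averaged 34.7 ± 0.889 FPKM in dcp5-1 and 67.1 ± 11.0 in Col-0. The cyclase genes that follow were divided: AOC2 averaged 30.9 ± 2.302 FPKM in dcp5-1 and 67.5 ± 5.26 in Col-0, while AOC3 averaged 24.9 ± 1.28 against 17.83 ± 0.224 FPKM. The tandem AOC genes are near copies and reads could be split between them. MYC2, the master factor of the pathway, averaged 15.66 ± 0.985 FPKM in dcp5-1 and 24.0 ± 0.314 in Col-0. Of 12 JAZ repressors 2 were higher, 5 lower and 5 not called, beside 18.8% higher and 28.1% lower of all loci.

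Among 11 tested genes of salicylate and defence 1 was higher and 4 were lower, near the 18.8% and 28.1% of all loci, and 3 were lower after quantile normalization. The higher one was ACD6, an ankyrin-repeat membrane protein that promotes cell death and salicylate, with 4.82, 5.05 and 5.24 FPKM in dcp5-1 and 0.0882, 0.205 and 0.281 FPKM in Col-0. The immune receptor gene SNC1 averaged 37.3 ± 2.17 against 55.1 ± 2.12 FPKM. Close to it, RPP4, an intracellular receptor of downy mildew resistance, had 3.00, 3.29 and 3.77 FPKM in dcp5-1 and 7.83, 9.05 and 8.06 FPKM in Col-0, and its neighbours AT4G16870 and AT4G16880 were lower by at least 1 log2 unit too. Receptor genes of this cluster resemble each other, which makes the split of reads uncertain.

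Transcripts of the maturing seed were less abundant in dcp5-1. Seeds load oil bodies, storage proteins and late embryogenesis abundant (LEA) proteins, whose mRNAs are normally removed after germination. Of 10 late embryogenesis and desiccation genes tested 8 were lower and none higher (median -0.82). OLEO2, an oil body coat protein, had 0.753, 0.726 and 0.896 FPKM in dcp5-1, against 14.8, 17.9 and 16.5 FPKM in Col-0. OLEO1 had 0.515, 0.496 and 0.0836 FPKM in dcp5-1, against 4.08, 5.18 and 4.92 FPKM in Col-0 (-2.08, adjusted p = 2.54e-06). EM6 (listed as GEA6), a LEA protein, had 2.78, 3.25 and 3.16 FPKM in dcp5-1, against 14.1, 20.9 and 16.8 FPKM in Col-0. PER1, a seed peroxiredoxin, averaged 1.18 ± 0.222 against 8.95 ± 0.610 FPKM, and the LEA gene LEA76 averaged 1.51 ± 0.105 against 5.20 ± 0.617 FPKM. DOG1, the dormancy regulator, had 0.697, 0.620 and 0.582 FPKM in dcp5-1, against 3.11, 4.13 and 4.56 FPKM in Col-0. The seed aquaporin gene TIP3;1, which no list holds and which was noticed after its values were seen, averaged 0.179 ± 0.159 against 3.96 ± 0.582 FPKM.

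These levels are low in both genotypes, and 11 of 16 listed storage and oil body genes, the cruciferins among them, did not reach a mean of 1 FPKM. Of the 5 that did, 2 were lower and 1 higher, the albumin gene SESA1, with a mean of 2.70 FPKM in dcp5-1 and 1.72 in Col-0. That higher call was lost without a level filter, in the fit of only the 6 libraries at 0 min and with the replicate block. It was also lost when any single dcp5-1 library, or Col-0 replicate 2 or 3, was left out. Of 11 genes of storage oil breakdown 9 were lower and none higher (median -0.39), with the thiolase gene PKT3 at 37.6 ± 1.66 FPKM in dcp5-1 and 71.5 ± 7.28 in Col-0. How far the seedlings of each genotype had grown is not given in the labels, and its part in these differences was not tested.

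Promoters of EM6, PER1 and the dehydrin gene XERO1 are shown because they hold the G-box CACGTG, the core of abscisic acid response elements. CACGTG is a palindrome and is in capitals.
GEA6 (chr2:16780369-16780618, minus strand): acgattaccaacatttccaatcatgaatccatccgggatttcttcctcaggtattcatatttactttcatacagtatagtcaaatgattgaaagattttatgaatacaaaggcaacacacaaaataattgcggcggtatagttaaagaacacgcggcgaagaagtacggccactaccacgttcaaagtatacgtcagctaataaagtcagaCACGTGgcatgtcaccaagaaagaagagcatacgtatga
PER1 (chr1:17780179-17780428, plus strand): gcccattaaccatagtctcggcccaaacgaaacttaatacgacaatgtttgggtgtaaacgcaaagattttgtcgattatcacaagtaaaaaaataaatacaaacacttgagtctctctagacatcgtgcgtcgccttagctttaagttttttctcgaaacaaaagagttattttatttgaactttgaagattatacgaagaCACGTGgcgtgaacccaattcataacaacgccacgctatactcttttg
XERO1 (chr3:18941675-18941924, plus strand): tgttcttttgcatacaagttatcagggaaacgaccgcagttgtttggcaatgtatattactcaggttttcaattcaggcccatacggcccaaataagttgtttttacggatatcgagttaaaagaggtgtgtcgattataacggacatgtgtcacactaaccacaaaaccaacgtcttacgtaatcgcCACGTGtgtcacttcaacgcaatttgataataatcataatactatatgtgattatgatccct
It stood in 70% of the 10 late embryogenesis promoters, in 42.9% of 14 clock promoters, in 14.5% of the 317 promoters of loci lower by at least 1 log2 unit, in 7.59% of the 158 of loci higher by that much, and in 7.63% of all tested promoters. Lists of either direction held it: 35.3% of 17 ERF and DREB promoters, mostly lower, and 33.3% of 15 iron and copper and 25% of 12 ER folding promoters, mostly higher. ACGTGGC, which overlaps it, stood in 50% of the late embryogenesis promoters and in 4.01% of all tested.

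Abscisic acid (ABA) and osmolyte genes, the classical targets of salt, were already lower in part before it was added. ABA is the hormone of drought and dormancy. Of 20 ABA effectors 10 were lower and 3 higher (median -0.20), beside 28.1% and 18.8% of all loci. Their summed level overlapped between genotypes, at 1912 to 1971 FPKM in dcp5-1 and 1876 to 2038 FPKM in Col-0. XERO1 had 2.69, 3.52 and 4.03 FPKM in dcp5-1, against 9.77, 14.6 and 13.2 FPKM in Col-0. LTI30, the dehydrin gene next to it, had 92.4, 94.4 and 96.8 FPKM in dcp5-1, against 197, 197 and 190 FPKM in Col-0 (-1.03, SE 0.053, adjusted p = 9.20e-08). The phosphatase gene HAI1, a brake on ABA signalling, averaged 5.61 ± 0.563 FPKM in dcp5-1 and 14.01 ± 3.69 in Col-0, and the NAC factor RD26 averaged 7.25 ± 1.27 against 16.1 ± 2.55 FPKM.

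Of 14 osmolyte and sugar genes 7 were lower and 1 higher, beside 28.1% and 18.8% of all loci. P5CS1, the rate-limiting enzyme of proline synthesis, had 38.04, 38.1 and 36.4 FPKM in dcp5-1, against 96.1, 94.6 and 93.4 FPKM in Col-0 (-1.31, SE 0.04, adjusted p = 1.83e-09). The galactinol synthase gene GolS2, of raffinose synthesis, averaged 0.901 ± 0.202 FPKM in dcp5-1 and 3.78 ± 0.915 in Col-0, and the sugar carrier gene ERD6 averaged 40.0 ± 0.619 against 95.6 ± 1.60 FPKM. The higher one was CT-BMY, a chloroplast beta-amylase of starch breakdown, with 28.1, 26.52 and 26.8 FPKM in dcp5-1 and 10.7, 11.4 and 11.1 FPKM in Col-0. An overlapping locus, AT4G06665, was higher as well, and without strand in the sources used here its reads and those of CT-BMY cannot be told apart. CIPK20, a calcium-regulated kinase gene next to DOG1, had 5.99, 5.13 and 5.64 FPKM in dcp5-1, against 32.1, 34.1 and 35.6 FPKM in Col-0.

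Glucosinolates are the mustard oil precursors of the Brassicales, split by myrosinases when tissue is damaged. ESM1, which steers the breakdown towards isothiocyanates, showed the largest called rise of any gene with a symbol. It had 97.5, 98.1 and 104 FPKM in dcp5-1, against 5.15, 5.57 and 4.13 FPKM in Col-0 (4.09, SE 0.076, adjusted p = 1.13e-10). In its list 5 of 15 breakdown genes were higher and 6 lower, beside 18.8% and 28.1% of all loci. PYK10, the root and seedling beta-glucosidase of ER bodies, averaged 2170 ± 34.2 FPKM in dcp5-1 and 1729 ± 138 in Col-0, and PEN2 (AT2G44490), a myrosinase of pathogen defence, averaged 15.3 ± 0.591 against 32.7 ± 2.89 FPKM. BGLU18, a beta-glucosidase outside this list that releases stored ABA, averaged 4.62 ± 0.347 FPKM in dcp5-1 and 21.1 ± 0.657 in Col-0.

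In glucosinolate synthesis the regulators and their enzymes differed in direction. MYB28, the factor that drives the aliphatic pathway, had 60.4, 59.3 and 61.6 FPKM in dcp5-1, against 15.66, 15.6 and 16.1 FPKM in Col-0 (1.87, SE 0.047, adjusted p = 6.38e-10). MYB29, its relative, averaged 16.9 ± 0.277 against 11.4 ± 0.512 FPKM. BCAT4 and MAM1, the first enzymes of chain elongation in that pathway, were lower: MAM1 had 11.5, 12.4 and 10.8 FPKM in dcp5-1 and 25.9, 26.3 and 24.2 FPKM in Col-0, and BCAT4 averaged 7.54 ± 0.368 FPKM in dcp5-1 and 15.8 ± 1.39 in Col-0. Over all 19 synthesis genes 4 were higher and 10 lower, beside 18.8% and 28.1% of all loci.

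Of 15 genes of iron and copper supply 10 were higher and 4 lower (median 0.33). The copper transporter gene COPT2 had 84.1, 83.6 and 85.4 FPKM in dcp5-1, against 44.4, 63.5 and 51.1 FPKM in Col-0. CSD2, the chloroplast copper superoxide dismutase, averaged 240 ± 5.67 FPKM in dcp5-1 and 165 ± 6.13 in Col-0, while FSD1, its iron counterpart, averaged 889 ± 27.8 against 1243 ± 225 FPKM. FER1, the iron store ferritin, averaged 227 ± 8.72 FPKM in dcp5-1 and 170 ± 20.8 in Col-0. The iron deficiency factor gene BHLH100 had 4.59, 5.93 and 5.94 FPKM in dcp5-1 and 2.03, 1.76 and 2.72 FPKM in Col-0, whereas its relative BHLH101 averaged 2.67 ± 0.367 against 4.99 ± 1.09 FPKM.

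The clock list as a whole stayed near the background, with 3 of 14 genes higher and 5 lower, beside 18.8% and 28.1% of all loci, and with 5 higher and 5 lower after median centring or quantile normalization. Single members differed. In the plant clock the morning factors LHY, CCA1 and RVE8 alternate with the PRR repressors through the day. LHY had 153, 151 and 157 FPKM in dcp5-1, against 76.0, 77.0 and 83.1 FPKM in Col-0 (0.96, SE 0.045, adjusted p = 5.32e-08). RVE8 averaged 39.9 ± 2.53 FPKM in dcp5-1 and 25 ± 0.545 in Col-0, while CCA1 did not pass (71.2 and 72.4 FPKM). The repressor gene PRR7 had 6.92, 8.23 and 6.61 FPKM in dcp5-1, against 19.7, 15.41 and 16.8 FPKM in Col-0. PRR9 had 1.09, 1.77 and 1.77 FPKM in dcp5-1, against 4.49, 4.22 and 4.80 FPKM in Col-0. The clock output GRP7, an RNA-binding protein gene, averaged 109 ± 9.01 against 55.7 ± 6.46 FPKM, and CCL averaged 177 ± 10.0 FPKM in dcp5-1 and 397 ± 19.3 in Col-0. The hour of sampling is not given in the labels, and whether it differed between genotypes was not tested.

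The promoter of CCL is shown because it holds the evening element AAAATATCT, to which the morning factors bind; it is in capitals.
CCL (chr3:9827432-9827681, plus strand): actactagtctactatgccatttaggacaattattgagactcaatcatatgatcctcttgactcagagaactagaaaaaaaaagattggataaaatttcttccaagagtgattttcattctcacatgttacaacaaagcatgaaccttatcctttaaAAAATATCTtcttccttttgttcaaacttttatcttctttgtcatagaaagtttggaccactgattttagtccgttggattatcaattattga
On either strand it stood in 35.7% of the 14 clock promoters, in 33.3% of the 6 promoters of the AZI1 cluster, in 6.62% of the 317 of loci lower by at least 1 log2 unit, in 3.16% of the 158 of loci higher by that much, and in 2.47% of all tested promoters.

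FLC, the MADS-box repressor of flowering, was among the 15 largest rises. It had 54.3, 62.1 and 56.1 FPKM in dcp5-1, against 13.2, 14.96 and 13.8 FPKM in Col-0 (1.96, SE 0.079, adjusted p = 1.61e-08).

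Auxin and growth genes were mostly lower where they changed. Of 16 auxin-responsive genes 10 were lower and 2 higher (median -0.39); GH3.3 and WES1, which couple auxin to amino acids, led with 2.02 ± 0.323 against 7.92 ± 0.301 FPKM for GH3.3 and with 5.73 ± 0.918 against 13.7 ± 1.59 FPKM for WES1, dcp5-1 before Col-0. PIF4, a factor of warmth and shade growth, averaged 56.2 ± 0.991 FPKM in dcp5-1 and 90.12 ± 3.93 in Col-0, while the shade marker PIL1 averaged 1.34 ± 0.0635 against 0.341 ± 0.151 FPKM. Of 16 wall growth genes 8 were lower and 4 higher, with the expansin gene EXPA4 at 125 ± 7.13 FPKM in dcp5-1 and 71.0 ± 12.9 in Col-0 and the brassinosteroid-induced EXO at 421 ± 28.3 against 763 ± 40.9 FPKM. Of 14 shade and light growth genes 2 were higher and 5 lower, of 11 flavonoid genes 4 were higher and 2 lower, and of 15 genes of nitrate, phosphate and sulfur supply 2 were higher and 9 lower. All loci tested were 18.8% higher and 28.1% lower, and the shade and light growth counts were near those shares. GASA6, a gibberellin-regulated peptide gene, had 345, 322 and 349 FPKM in dcp5-1, against 1043, 1176 and 957 FPKM in Col-0 (-1.64, adjusted p = 3.12e-08).

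Other genes of the decay machinery changed in both directions. Of 20 decapping and processing body genes 8 were lower, DCP5 included, and 2 higher (median -0.16), beside 28.1% and 18.8% of all loci. DCP1 averaged 20.3 ± 0.628 FPKM in dcp5-1 and 28.1 ± 1.99 in Col-0, and DCP2, the decapping enzyme, averaged 7.93 ± 0.238 against 10.7 ± 0.255 FPKM. RH6, a DEAD-box helicase of processing bodies, averaged 15.1 ± 0.740 FPKM in dcp5-1 and 21.7 ± 0.901 in Col-0. The 2 higher members belong to the LSM rings: LSM1B averaged 33.5 ± 2.48 against 24.2 ± 1.60 FPKM, and LSM4 (listed as emb1644) averaged 101 ± 3.84 against 82.9 ± 7.38 FPKM. The number of higher calls in this list depends on scaling, with 4 after median centring and 5 after quantile normalization, against 8 lower in both.

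Of 12 deadenylases and tandem zinc finger genes 9 were lower and 2 higher (median -0.59). SZF1, a salt-inducible zinc finger gene, had 49.9, 46.5 and 50.2 FPKM in dcp5-1, against 113, 141 and 121 FPKM in Col-0. OZF1, of oxidative stress, had 5.99, 7.28 and 6.09 FPKM in dcp5-1, against 17.0, 21.9 and 18.7 FPKM in Col-0. The deadenylase gene CAF1a averaged 170 ± 6.81 FPKM in dcp5-1 and 247 ± 28.2 in Col-0, whereas CCR4A averaged 44.5 ± 1.64 against 32.2 ± 1.37 FPKM.

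Other leading genes belong to none of these lists. Among the largest rises were GLP9, a germin-like protein, with 11.1, 11.1 and 11.2 FPKM in dcp5-1 and 1.89, 1.60 and 1.56 FPKM in Col-0, and PRXCB, a cell wall peroxidase of the oxidative burst, with 218, 204 and 215 FPKM in dcp5-1 and 52.8, 53.2 and 61.0 FPKM in Col-0. The chloroplast outer envelope gene OEP6 averaged 736 ± 43.3 FPKM in dcp5-1 and 177 ± 32.3 in Col-0, and OEP16-1 averaged 56.5 ± 1.79 against 14.99 ± 0.834 FPKM. Among the largest falls were FBA5, a cytosolic aldolase, with 40.4, 41.5 and 43.6 FPKM in dcp5-1 and 272, 399 and 323 FPKM in Col-0, HIS1-3, a drought-inducible linker histone, with 10.2, 7.34 and 8.29 FPKM in dcp5-1 and 41.1, 39.7 and 42.4 FPKM in Col-0, and CDEF1, a cutin-degrading esterase, with 5.09, 4.63 and 5.24 FPKM in dcp5-1 and 22.9, 25.03 and 25.6 FPKM in Col-0. ERF10 averaged 1.8 ± 0.187 against 9.11 ± 1.54 FPKM, dcp5-1 before Col-0. The microRNA precursor locus MIR167d had 1.82, 2.11 and 2.98 FPKM in dcp5-1, against 20.03, 12.2 and 8.03 FPKM in Col-0.

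Loci that changed by at least 1 log2 unit in the same direction stood next to each other among the tested loci in 35 runs, 17 higher and 18 lower. Loci under the minimum level were passed over, so members of a run need not be neighbours in the genome. For example, GRP3S ends at 1968142 and GRP9 starts at 1993038 on chromosome 2. Besides the AZI1 row, HSP17.6II with HSP17.6A, CIPK20 with DOG1, and LTI30 with XERO1, one run held the glycine-rich protein genes GRP3S, GRP9 and AT2G05510 on chromosome 2. GRP9 had 1256, 1728 and 1135 FPKM in dcp5-1, against 299, 346 and 351 FPKM in Col-0. GRP3S averaged 3539 ± 144 against 1419 ± 176 FPKM. Another held the defensin-like genes LCR69 and PDF2.1: LCR69 averaged 919 ± 82.3 FPKM in dcp5-1 and 366 ± 30.6 in Col-0, and PDF2.1 averaged 14.9 ± 0.990 against 3.18 ± 1.98 FPKM. One lower run joined MIOX2, a myo-inositol oxygenase gene, with the zinc finger gene OZF1, and another joined ERF104 with AT5G61590, annotated as an integrase-type DNA-binding protein. Many runs, such as HSP17.4 with AT3G07365, GASA6 with AT1G74675 and HCHIB with AT3G12502, hold overlapping annotations whose reads cannot be told apart without strand. The 35 runs are therefore not a count of separate groups of neighbouring genes.

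Some loci were close to present or absent by genotype. By a rule chosen after the values were seen, at least 2 FPKM in every library of one genotype and at most 0.5 FPKM in every library of the other, 11 loci (0.0553%) were present in dcp5-1 and 3 (0.0151%) in Col-0. Of the 11, 6 met the same rule at 60 min, in libraries that the rule had not used, and of the 3, 2 did. AT3G29631, annotated as a nuclease on chromosome 3 (11470374 to 11470821), had 11.7, 15.2 and 18.21 FPKM in dcp5-1 and was listed at 0 in all 3 Col-0 libraries at 0 min and all 3 at 60 min; it overlaps AT3G05845, which was higher as well, and their reads cannot be told apart. AT2G11410, a pseudogene on chromosome 2, had 8.06, 7.36 and 7.91 FPKM in dcp5-1 and was listed at 0 in the same 6 Col-0 libraries. AT1G59920, a MADS-box gene on chromosome 1, averaged 4.42 ± 0.809 FPKM in dcp5-1 and 0.140 ± 0.242 in Col-0. The opposite pattern was shown by AT1G07887, a long non-coding RNA on chromosome 1 (19963067 to 19964105), with 0.112, 0.307 and 0 FPKM in dcp5-1 and 36.8, 48.0 and 43.6 FPKM in Col-0. It overlaps HEI10, a gene of meiotic crossing over, on the same strand, so that reads may be shared. Whether DNA differs at these loci between the lines was not tested.

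Marker genes of tissues and of dividing cells were counted too, beside 18.8% higher and 28.1% lower of all loci. Of 12 cell division markers 5 were higher and 1 lower, and their summed level was 115 to 120 FPKM in dcp5-1 and 84.0 to 89.4 FPKM in Col-0. PCNA1, the replication clamp, averaged 12.4 ± 1.13 FPKM in dcp5-1 and 6.93 ± 1.05 in Col-0, CYCD3;1, a cyclin of cell cycle entry, averaged 34.4 ± 0.926 against 21.0 ± 1.18 FPKM, and TSO2, a ribonucleotide reductase subunit, averaged 29.3 ± 0.348 against 18.1 ± 2.32 FPKM. The mitotic cyclin gene CYCB1;1 did not pass. Of 10 vascular markers 3 were higher and 5 lower, and the sum was 130 to 137 FPKM in dcp5-1 and 114 to 123 in Col-0. The xylem protease genes XCP1 (23.8 ± 1.93 FPKM in dcp5-1, 13.0 ± 1.39 in Col-0) and XCP2 were higher, and the phloem sucrose carrier gene SUC2 was lower, at 26.2 ± 1.18 against 39.1 ± 3.27 FPKM.

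Of 10 root markers 1 was higher and 4 lower, with sums of 98.95 to 114 FPKM in dcp5-1 and 122 to 131 in Col-0; 5 of the 15 listed were under the minimum level. Of 7 trichome markers 3 were lower and none higher, with sums of 17.2 to 19.6 FPKM in dcp5-1 and 23.0 to 27.1 in Col-0. Of 10 stomatal markers 2 were lower and none higher, with sums of 56.0 to 60.9 FPKM in dcp5-1 and 59.2 to 60.9 in Col-0, and of 7 shoot meristem markers 2 were higher and 2 lower. Since 18.8% of all loci were higher and 28.1% lower, counts in lists of 7 to 10 markers alone are no result about tissues. The part of tissue make-up in the differences above was not tested.

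Most differences were found again at 60 min, in libraries that the 0 min contrast did not use, although both contrasts share the estimate of spread. Of the 3731 loci higher at 0 min 2651 (71.1%) were also higher at 60 min, where 27.1% of all loci were, and 99 were lower. Of the 5582 lower at 0 min 3242 (58.1%) were lower at 60 min, where 27.4% of all loci were, and 390 were higher. Among loci changed by at least 1 log2 unit, 166 of 192 (86.5%) remained higher and 288 of 370 (77.8%) remained lower. The genotype effect itself differed between 60 and 0 min at 4850 loci (24.4%). Of the 370 lower by at least 1 log2 unit, 176 had an effect that moved upwards and 14 one that moved downwards; since the 0 min value that chose these loci is subtracted in that change, an excess of upward moves follows in part from the choice, and the counts are a description.

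Gene groups kept their difference to unequal degrees. The cytosolic small heat shock median was 1.07 at 60 min, and HSP90.1 then averaged 21.4 ± 0.669 FPKM in dcp5-1 and 2.57 ± 0.0959 in Col-0. The sugar starvation median stayed at -0.82, with ASN1 at 68.3 ± 1.76 FPKM in dcp5-1 and 235 ± 4.09 in Col-0. The antenna median was -0.37 and that of photosystem subunits -0.26. For the Calvin cycle it was 0.25, and RCA, the activase of Rubisco, averaged 2857 ± 85.5 FPKM in dcp5-1 and 1920 ± 41.6 in Col-0 at 60 min, after 1208 ± 64.3 against 1796 ± 182 FPKM at 0 min. OLEO2 averaged 2.14 ± 0.206 FPKM in dcp5-1 and 4.12 ± 1.12 in Col-0 at 60 min. FLC stayed apart, with 30.3 ± 2.63 FPKM in dcp5-1 and 5.18 ± 0.418 in Col-0. No 60 min library without NaCl is labelled, so salt and 60 min more in liquid cannot be told apart.

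**Figure D4:**
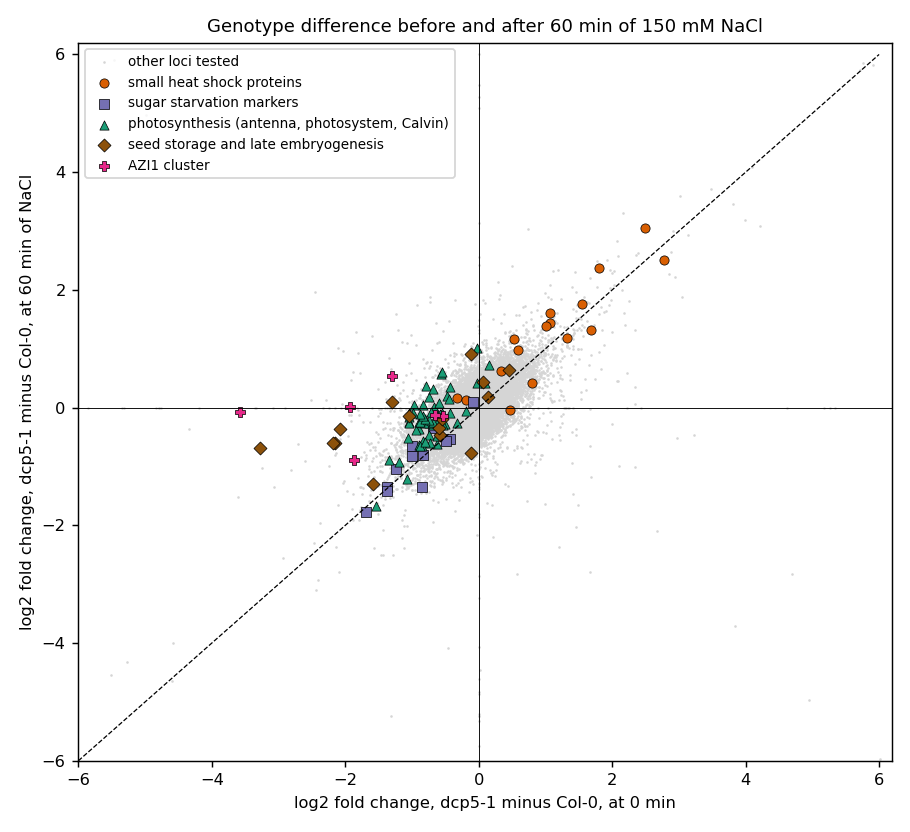
Each point is a locus, with its log2 fold change, dcp5-1 minus Col-0, at 0 min on the x axis and at 60 min on the y axis. The dashed line marks equal values, and 14 loci lie outside the axes. The Rubisco gene RBCS1A is not marked among the photosynthesis genes. Sugar starvation genes lie near the line, and photosynthesis genes mostly above it. Small heat shock genes lie near or above the line, with a cytosolic median of 0.70 at 0 min and 1.07 at 60 min. The AZI1 cluster and most late embryogenesis genes lie closer to 0 on the y axis than on the x axis. Examples are AZI3 at -3.58 and -0.08 and PER1 at -2.19 and -0.61, while AZI1 is at -1.29 and 0.54.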

How the data were processed

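RNA-seq of whole seedlings gave 12 libraries, 3 for each genotype and time, all of which entered the fit, since the other groups share the estimate of spread. The authors deposited FPKM values per locus; reads were mapped with Bowtie to TAIR10, per the submitters' processing notes, while for the Bowtie version, quantifier, annotation and strand setting nothing is stated (not given in the sources used here). FPKM hides depth, so recovered read numbers were used only to describe it. Of 38088 loci in the table, 37792 matched a RefSeq TAIR10.1 gene, which gave symbols, products and promoters of 250 bases. A last line without values was left out.

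Loci whose FPKM averaged 1 or more across the 12 columns, 19876 in all, were tested on log2(FPKM + 1) with limma 3.58.1 in R 4.3.3: 4 group means, a trended prior on the variance, and Benjamini-Hochberg adjustment over all tested loci, called at 0.05. The fit was tested on simulated data. Named genes were, by rule, DCP5, the 15 largest called rises and 15 largest called falls among genes with a symbol, at least 5 FPKM in the higher genotype and no overlap between the libraries, the up to 3 largest in each direction in each list, members of neighbour runs and the highest member of a list in Col-0; others named were chosen after their values were seen. The comparison and all gene lists were chosen with earlier results of these data known. The TTCNNGAA search and the rule for present or absent loci were added after the data were seen. Alternatives changed the pseudocount, the level filter, the scaling, the samples fitted, the replicate block and single libraries.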

Additional observations from a re-analysis of the deposited data

Results flagged for a closer look

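For 70 of the 135 genes with per-library values, the difference between dcp5-1 and Col-0 was not the same after 60 min in NaCl as at 0 min, by limma's test of the change itself (adjusted p under 0.05 over all tested loci, where 24.4% of loci passed). The values are the change of the log2 fold change, 60 min minus 0 min, so that a positive one means that dcp5-1 stood higher relative to Col-0 at 60 min. Most of these genes were named for a large difference at 0 min, and that value is subtracted in the change, so that a share above that of all loci follows in part from the choice and is no result about these genes.

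Seed, lipid-transfer and carbon fixation genes had the largest upward changes, mostly of genes lower in dcp5-1 at 0 min: AZI3 3.504, OLEO2 2.59, EARLI1 1.95, AZI1 1.84, OLEO1 1.71, PER1 1.58, GEA6 1.56, LEA76 1.40, GASA6 1.39, RCA 1.14, GAPB 1.01 and XERO1 1.00. AZI3 and EARLI1 were not called at 60 min, and AZI1 and RCA were higher in dcp5-1 at 60 min but lower at 0 min. Changes between 0.6 and 1 were ERF10 0.98, AZI4 0.97, PSAG 0.95, RD26 0.94, FBA2 0.90, TCH3 0.85, AOC2 0.82, RBCS3B 0.79, OEP6 0.77, AOC3 0.76, BHLH101 0.72, PSBR 0.69, HAI1 0.68, ELIP2 0.66, ERF104 0.65, TCH4 0.64, HSP17.6C 0.64, CAF1a 0.64 and ERD6 0.62. Smaller upward changes were ELIP1 0.58, BGLU18 0.56, LHB1B2 0.56, SUC2 0.56, FSD1 0.55, HSP17.6II 0.55, HSP21 0.54, COPT2 0.52, EXO 0.51, P5CS1 0.48, CAB3 0.45, LHY 0.39, FLC 0.37, PYK10 0.37, GUN5 0.36, OHP 0.34, LTI30 0.33, BCAT4 0.32, DCP1 0.31 and PKT3 0.30. In HSP17.6II, HSP17.6C, HSP21, ELIP1, ELIP2, AOC3, OEP6, COPT2, LHY, FLC and PYK10 the upward change adds to a difference that was already positive.

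Downward changes were fewer, 19 in all: PRR9 -1.26, ACD6 -1.03, HSC70-3 -0.87, CML41 -0.83, MYB28 -0.81, PRR7 -0.75, CDEF1 -0.70, MYC2 -0.64, RPP4 -0.63, MYB29 -0.61, GLP9 -0.57, OEP16-1 -0.52, CIPK20 -0.51, SEN1 -0.49, WRKY60 -0.34, PRXCB -0.27, CCR4A -0.26, LOX2 -0.24 and HSF4 -0.23. PRR9 and PRR7 were lower in dcp5-1 at both times and further apart at 60 min, while the difference of HSC70-3, ACD6 and MYB28 was positive at 0 min and smaller at 60 min. Groups of 3 libraries are too small for a test of single libraries that stand apart, and salt, 60 min in liquid and the hour of day cannot be told apart.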

How the results depend on the processing

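Numbers of calls at 0 min kept to within 1.5 times of the 3731 higher and 5582 lower loci under every alternative run. Pseudocounts of 0.1 and 5 gave 3717 and 3734 higher loci, no level filter 4020 and a mean of at least 5 FPKM 2875. Scaling moved the balance: 40.1% of calls were higher in the values as deposited, 51.6% after quantile normalization, 51% after median centring and 50.3% after a trend with transcript length was removed (4762 higher, 4698 lower). The fit on the 6 libraries at 0 min gave 3032 higher and 4549 lower loci. Leaving out each library in turn gave 3188 to 3715 higher and 4838 to 5582 lower loci. With the replicate number as a block there were 3675 higher and 5490 lower loci; same-numbered libraries deviated together with correlations of -0.10 to 0.18, so the numbers were not taken to pair them. Of 134 named genes besides DCP5 that were followed, 130 kept their direction and call under every one of the 15 alternatives that tested them. In this set, 118 of the 134 were tested with a mean of at least 5 FPKM, and all under the other 14. Not every gene named above is in the set: SESA1, whose call was lost under several alternatives, is not. RBCS3B reversed to 0.18 (adjusted p = 0.717) after quantile normalization, and lost its call without a level filter (0.114) and in the 6-library fit (0.122). LHB1B2 and PSBR lost theirs only after quantile normalization, at -0.12 and -0.63. HSC70-1 lost its call after median centring (adjusted p = 0.0517), after the length trend was removed (0.0742), in the 6-library fit (0.099) and without dcp5-1 replicate 1 (0.0698) or 3 (0.0537). The causes were not tested. No list with a median of at least 0.2 in size changed sign. List medians moved too. Quantile normalization brought that of antenna genes to -0.31 and that of photosystem subunits to -0.28. With a pseudocount of 5 that of organelle small heat shock proteins was 0.58, of the AZI1 cluster -0.97, of late embryogenesis genes -0.53, of oil breakdown -0.21 and of osmolytes -0.09, and with a mean of at least 5 FPKM that of cytosolic small heat shock proteins was 1.07. Without Col-0 replicate 1 the ELIP and one-helix median was 0.11. Depth limits low genes: with 151 to 176 reads on the median gene, genes under 1 FPKM rest on few reads.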
